A study of Mus musculus with 9 samples.

Results

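Respiratory chain and ATP synthase genes were followed in cultured periosteal progenitors of the mouse mandible. The set was chosen by gene name from the 21958 rows of the expression table: Nduf genes of complex I other than assembly factors, Sdha to Sdhd of complex II, Uqcr genes of complex III, Cox genes of complex IV, Atp5 genes of ATP synthase (complex V) and all rows named mt-. It held 101 genes, 88 of the nucleus (39 of complex I, 4 of complex II, 8 of complex III, 19 of complex IV and 18 of complex V) and 13 of the mitochondrial genome. Of these, 94 passed the filter on low counts and were tested, 82 nuclear and 12 mitochondrial. Ndufb11b, Cox4i2, Cox7b2, Cox8b, Cox8c, mt-Atp8 and a second identifier of Atp5o did not pass it. The names are not a perfect guide to the complex: Ndufa4 counts here under complex I by its name, although its protein has been assigned to complex IV, and Cox5b-ps is a pseudogene.

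Complexes I, III and IV pass electrons from NADH towards oxygen and pump protons across the inner mitochondrial membrane, complex II feeds electrons in from succinate, and ATP synthase uses the proton gradient to make ATP. The mitochondrial genome encodes hydrophobic core proteins of complexes I, III, IV and V, while all other subunits, and all of complex II, are nuclear and are imported. Osteoblast differentiation is known to change how cells share ATP production between glycolysis and respiration, and only transcript levels, not proteins or respiration, were measured here.

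The 9 libraries fell into 3 groups of 3. Control cells carried Plagl1 fl/fl (both alleles floxed, without Cre) and were sampled at day 0 without induction, or at day 3 in osteogenic medium, which held dexamethasone (100 nM), ascorbic acid (50 ug/ml) and b-glycerophosphate (5 mM). Mutant cells carried CTSK-iCre;Plagl1 fl/fl, in which Cre is named for the Ctsk promoter, known to be active in periosteal progenitors and in osteoclasts, and were sampled at day 3 in the same medium. All groups thus shared the floxed alleles. There was no group of uninduced mutant cells, none of control cells at day 3 without induction and none with Cre alone. In what follows, induction stands for day 3 in osteogenic medium against day 0, so medium and time in culture cannot be told apart. The sources used here do not give the age or sex of the mice, or whether animals were pooled. Levels are given as CPM (counts scaled to the depth of each library, with TMM factors) for each library in the order of the replicate numbers, or, where genes are compared with each other, as FPKM (scaled to gene length as well). Gene coordinates are those of the deposited table, made on GRCm39 per the submitters' processing notes. Whether the 3 libraries of each group stem from different cultures or mice is not stated. The p-values therefore refer to library-to-library spread alone, and that spread may be technical.

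Total counts ran from 16204327 to 19859744 per library. Plagl1, the floxed gene, had 35.5, 38.4 and 35.9 CPM in the control libraries at day 0, 43.9, 44.9 and 45.8 CPM in the controls at day 3 and 26.3, 24.2 and 24.8 CPM in the mutant, in which it was lower than in the day 3 controls by a log2 fold change of -0.84 ± 0.07 (SE). Markers of periosteal progenitors (10 genes, Postn, Prrx1 and Pdgfra among them) summed to 9390 to 10400 CPM at day 0, 17477 to 18063 CPM in day 3 controls and 13745 to 14881 CPM in the mutant. Markers of macrophages (11 genes, Lyz2 and Csf1r among them) summed to 13014 to 13495 CPM, 17960.0 to 19844 CPM and 19014 to 20850 CPM. These sums lay above those of the progenitor markers at day 0 and in the mutant, and overlapped them in day 3 controls. The cultures thus held RNA of macrophages in all groups. Markers of skeletal muscle (7 genes) summed to 30.8 to 36.6 CPM, 42.2 to 50.1 CPM and 62.1 to 72.9 CPM. Markers of endothelium (5 genes) reached 3.71 to 5.30 CPM, 5.09 to 5.72 CPM and 8.12 to 8.86 CPM, those of osteoclasts (6 genes) 37.5 to 49.7 CPM, 97.2 to 105 CPM and 123 to 125 CPM, and those of brown adipocytes (6 genes) 6.23 to 8.60 CPM over all libraries. No gene of these lists was at 0 in all libraries. The 4 Y-linked genes examined (Ddx3y, Uty, Kdm5d and Eif2s3y) summed to 278 to 283 CPM, 261 to 282 CPM and 91.6 to 108 CPM, and 4 of 4 were lower in the mutant than in the day 3 controls, so that genotype and the sex makeup of the cells cannot be told apart.

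Because many of the nuclear genes moved together, their promoters were searched for 4 motifs of factors known to drive respiratory genes. RefSeq promoters (250 bases before to 50 after the start, build GRCm38.p6) were matched by symbol for 69 nuclear genes of the set and searched on both strands. The NRF1 core GCGCATGC stood in 10 of 69 (14.5%) against 3.05% of all 27025 genes with a listed promoter. The ETS motif CCGGAAGT, which GABPA binds, stood in 5 (7.25% against 4.31%). The ESRRA motif TCAAGGTCA stood in 2 (2.90% against 0.466%) and the YY1 motif CAAGATGGC in 6 (8.70% against 1.42%). A gene counted where any of its promoters matched, and the 27025 genes were not limited to those expressed here. The NRF1 core reads nearly the same on both strands, so that 1 palindromic site can be matched at overlapping positions. A match is a description of letters and not a site shown to be bound. The 5 promoters printed next belong to genes described below, and show the NRF1 core, the ETS motif and the ESRRA motif in capitals, 5′ to 3′ along the gene.
Uqcr11 (GRCm38.p6 chr10:80406772-80407071, minus strand): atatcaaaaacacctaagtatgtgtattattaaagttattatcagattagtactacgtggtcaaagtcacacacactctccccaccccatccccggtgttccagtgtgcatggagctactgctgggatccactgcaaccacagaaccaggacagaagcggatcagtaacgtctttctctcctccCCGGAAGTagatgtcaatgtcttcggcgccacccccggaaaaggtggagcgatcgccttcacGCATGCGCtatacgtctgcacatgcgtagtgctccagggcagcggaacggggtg
Cox8a (GRCm38.p6 chr19:7217567-7217866, minus strand): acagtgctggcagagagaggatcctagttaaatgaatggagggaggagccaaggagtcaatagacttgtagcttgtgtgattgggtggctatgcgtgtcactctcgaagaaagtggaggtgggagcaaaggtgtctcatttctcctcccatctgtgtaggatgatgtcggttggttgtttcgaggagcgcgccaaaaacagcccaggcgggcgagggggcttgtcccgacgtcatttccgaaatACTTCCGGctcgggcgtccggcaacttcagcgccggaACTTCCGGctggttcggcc
Atp5k (GRCm38.p6 chr5:108434350-108434649, minus strand): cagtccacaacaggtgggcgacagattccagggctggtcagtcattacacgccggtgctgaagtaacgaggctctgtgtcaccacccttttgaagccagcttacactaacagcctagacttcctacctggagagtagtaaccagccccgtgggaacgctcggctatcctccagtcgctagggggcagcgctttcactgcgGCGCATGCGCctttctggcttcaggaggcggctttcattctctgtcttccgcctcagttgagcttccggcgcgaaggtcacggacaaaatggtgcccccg
Sdhd (GRCm38.p6 chr9:50603800-50604099, minus strand): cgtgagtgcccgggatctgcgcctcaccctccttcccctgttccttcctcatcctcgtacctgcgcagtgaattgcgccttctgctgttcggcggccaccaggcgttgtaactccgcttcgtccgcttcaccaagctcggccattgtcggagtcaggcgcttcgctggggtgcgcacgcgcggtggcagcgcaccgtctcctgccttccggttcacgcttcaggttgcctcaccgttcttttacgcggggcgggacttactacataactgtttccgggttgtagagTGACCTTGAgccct
Uqcrc1 (GRCm38.p6 chr9:108936398-108936697, plus strand): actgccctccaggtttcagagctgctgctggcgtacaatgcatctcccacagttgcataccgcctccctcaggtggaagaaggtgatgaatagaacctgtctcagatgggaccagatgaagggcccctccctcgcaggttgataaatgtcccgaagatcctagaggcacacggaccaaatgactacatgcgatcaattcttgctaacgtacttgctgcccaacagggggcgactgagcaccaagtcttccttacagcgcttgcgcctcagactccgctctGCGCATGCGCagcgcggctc
Uqcr11 held an ETS motif and an NRF1 core, Cox8a a pair of ETS motifs, Atp5k and Uqcrc1 an NRF1 core and Sdhd an ESRRA motif. Of the 50 matched genes that rose on induction, 7 held the NRF1 core, 5 the ETS motif, 2 the ESRRA motif and 5 the YY1 motif. Of the 17 tested and matched genes that did not rise, 3 held the NRF1 core, 0 the ETS motif, 0 the ESRRA motif and 1 the YY1 motif.

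Control cells at day 3 were compared with control cells at day 0 to see how the genes moved on osteogenic induction. Medium and time in culture changed together in this comparison. Most nuclear subunit genes rose by a modest amount: 62 of 82 were higher and 2 lower at an adjusted p below 0.05 (edgeR quasi-likelihood test, Benjamini-Hochberg adjustment over all 13013 genes tested). Of the 12 mitochondrial mRNAs tested 3 were higher and 1 lower. Over the whole set that made 65 higher, 3 lower and 26 not called, while 33.1% of all genes tested were higher and 32.4% lower. The median log2 fold change was 0.32 over the 94 genes and 0.01 over all genes tested. The libraries of the 2 days did not overlap for 68 of the 94 genes. Over all 13013 genes tested they did not overlap for 4620 that were higher at day 3 and 4587 that were lower. Days without overlap were thus common over all genes. Few changes were large: 12 members were higher and 1 lower by at least 1.5-fold, against 17.9% and 14.2% of all genes tested. When counts were scaled by library size alone, the median of all genes tested moved to -0.11 and that of the set to 0.20, and 49 members were higher and 8 lower, against 26.3% and 41.5% of all genes. Cell type markers moved as well: of the progenitor markers 8 of 10 were higher and 0 lower at day 3. Of the macrophage markers 8 of 11 were higher and 3 lower (median log2 fold change 0.51), the latter being Csf1r, Ptprc and Mrc1. Osteoclast markers rose in sum, with 1 of 3 tested higher and 2 lower. Their part in the result was not tested, and in bulk RNA a higher share of cells rich in subunit transcripts and more transcript per cell cannot be told apart.

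**Figure D1:**
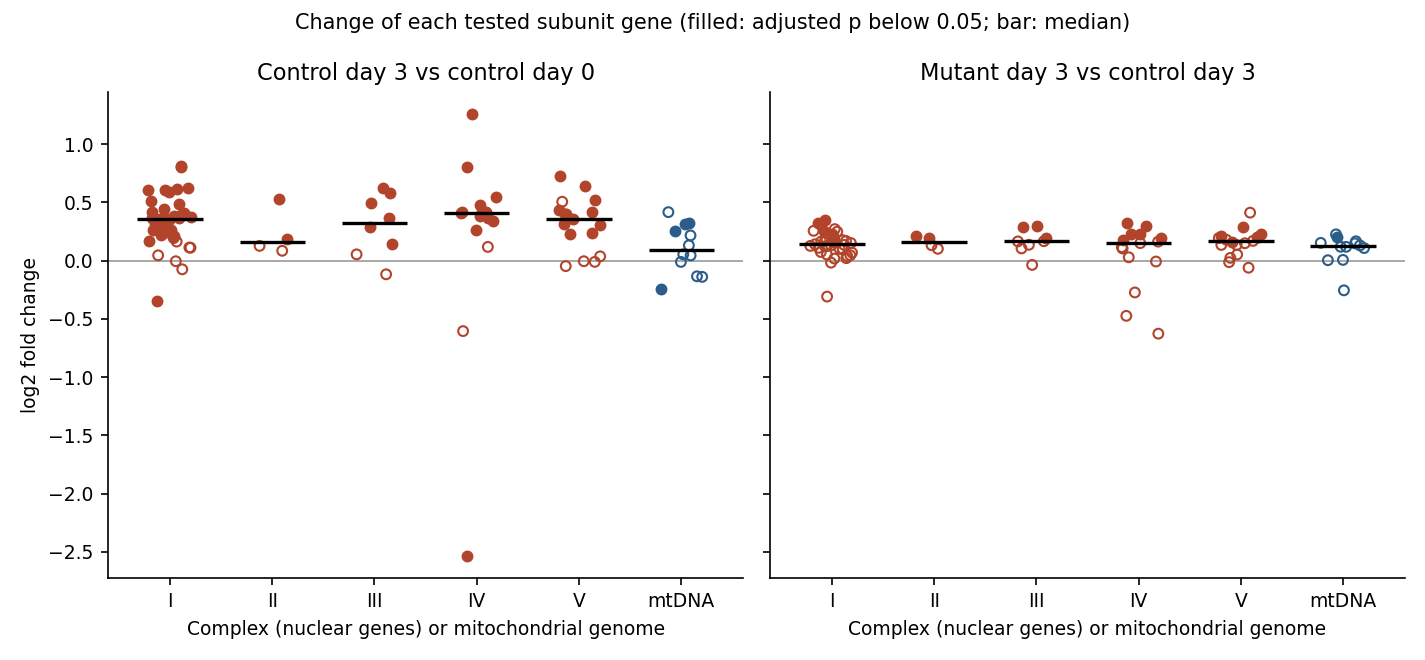
Log2 fold change (y axis) of each tested gene, for nuclear genes of complexes I to V and for mitochondrial mRNAs (x axis), in the 2 comparisons; filled points passed an adjusted p of 0.05, open points did not, and bars are medians. On induction most nuclear genes lie above 0, with Cox6a2 far below at -2.53, and mitochondrial mRNAs centre near 0 (median 0.09); between mutant and control at day 3 most points lie slightly above 0 and no filled point lies below it.

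By complex, 30 nuclear genes of complex I rose and 1 fell among 38 tested (median log2 fold change 0.36), 2 of 4 rose in complex II (0.16), 6 of 8 in complex III (0.33), 12 of 15 in complex IV with 1 lower (0.41), and 12 of 17 in ATP synthase (0.36). Summed over its nuclear genes, complex IV had 847 ± 39.9 CPM (SD, n = 3) at day 0 and 1080.5 ± 37.8 CPM at day 3, the largest ratio (1.28) of the 5 complexes. ATP synthase had the smallest ratio (1.10), with 2371 ± 72.7 CPM and 2605 ± 63.1 CPM. For each complex the 3 libraries of one day stood apart from the 3 of the other. As a share of all reads, however, ATP synthase held 0.252 ± 0.00868% at day 0 and 0.254 ± 0.00567% at day 3, a difference within the spread between libraries.

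**Figure D2:**
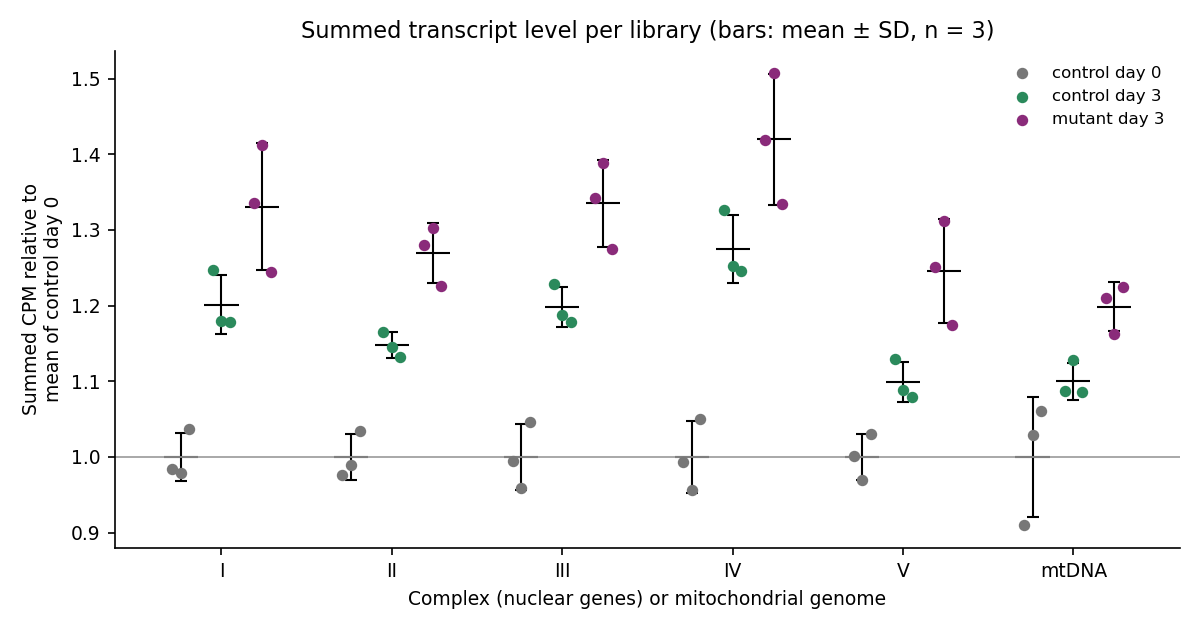
Summed CPM of the nuclear genes of each complex and of the mitochondrial mRNAs (x axis), relative to the mean of the day 0 controls (y axis), for each library (points) with mean ± SD (bars, n = 3). The control libraries at day 3 lie above those of day 0 in every class, most in complex IV and least in ATP synthase and the mitochondrial mRNAs, and the mutant libraries lie higher than the day 3 controls except in complex I, where mutant replicate 3 (1591 CPM) lies just under control replicate 1 (1594 CPM). Mutant replicate 2 is the highest and replicate 3 the lowest of its group in each nuclear class.

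In complex I, the nuclear genes divide into core subunits, which carry the flavin and iron-sulfur clusters, and accessory subunits around them. Accessory genes rose in 27 of 31 tested. Among core genes Ndufs3 and Ndufv2 rose, Ndufs8 fell, and Ndufs1, Ndufs7 and Ndufv1 were not called. Ndufb1 (chr12:101934349-101943327), an accessory subunit of the membrane arm, had 10.4, 9.58 and 9.96 CPM at day 0 and 18.0, 16.6 and 17.8 CPM at day 3, a log2 fold change of 0.80 ± 0.11 (SE, adjusted p = 8.54e-07, edgeR). Ndufs3, a core subunit of the peripheral arm, had 44.1, 46.8 and 44.4 CPM and 64.9, 64.8 and 59.5 CPM (0.49 ± 0.07, adjusted p = 1.06e-06). All day 3 libraries lay above all day 0 libraries for both genes. Ndufs8 (chr19:3958863-3962774), a core subunit with a pair of iron-sulfur clusters, moved the other way, from 35.7, 32.3 and 37.1 CPM to 28.0, 26.8 and 28.2 CPM (-0.34 ± 0.08, adjusted p = 4.41e-04), and again the groups did not overlap. It was singled out, like Atp5a1 further on, after its values were seen.

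Complex II joins a pair of catalytic subunits, the flavoprotein Sdha and the iron-sulfur protein Sdhb, to the membrane anchors Sdhc and Sdhd. Both anchors rose and neither catalytic gene was called. Sdhd (chr9:50507657-50515112) had 80.2, 83.5 and 85.2 CPM at day 0 and 120.4, 121 and 118 CPM at day 3, with no overlap between the days (0.53 ± 0.05, adjusted p = 1.80e-08). Sdhc went from 106, 109 and 114 CPM to 122, 131 and 122 CPM (0.19 ± 0.05, adjusted p = 0.00477), a call that scaling by library size alone removed (adjusted p = 0.296). Sdhb had 67.8, 68.8 and 77.8 CPM and 82.6, 76.3 and 75.0 CPM, ranges that overlap (0.13 ± 0.06, adjusted p = 0.0846).

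In complex III the large and the small subunits stood apart in their calls. The 5 small-subunit genes (Uqcr10, Uqcr11, Uqcrb, Uqcrh and Uqcrq) all rose, under every alternative setting run other than the 1.5-fold limit, while of the core proteins Uqcrc1 and Uqcrc2 and the Rieske protein Uqcrfs1 only Uqcrc2 did (0.14 ± 0.06, adjusted p = 0.0373). The days overlapped for Uqcrc2, and its call was lost with library size alone, with DESeq2, and without day 0 replicate 1 or 2 or day 3 replicate 1 or 2 (adjusted p up to 0.768). Uqcr10 (chr11:4651973-4654342) had 35.8, 33.0 and 33.6 CPM at day 0 and 53.3, 52.4 and 52.9 CPM at day 3, the day 3 libraries lying within 1 CPM of each other and far above day 0 (0.63 ± 0.07, adjusted p = 3.27e-08). Uqcrh, the hinge protein at cytochrome c1, had 72.3, 65.0 and 83.5 CPM and 110.4, 113 and 105 CPM (0.58 ± 0.07, adjusted p = 3.32e-07). For Uqcr11, whose promoter is printed above, the levels were 27.3, 25.6 and 24.2 CPM and 35.7, 31.4 and 32.2 CPM (0.36 ± 0.08, adjusted p = 5.14e-04).

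In complex IV all 10 genes of commonly expressed or single subunits rose, although Cox4i1 was not called when counts were scaled by library size alone (adjusted p = 0.0693). Cox8a (chr19:7192518-7194981), a small membrane subunit, had 56.9, 60.6 and 53.9 CPM at day 0 and 85.0, 83.2 and 81.8 CPM at day 3 (0.55 ± 0.06, adjusted p = 7.82e-08). The days did not overlap for Cox8a, nor for any other of these 10 genes named next. Cox5a, a subunit of the matrix side, had 11.0, 9.25 and 10.8 CPM and 15.6, 12.0 and 13.9 CPM (0.41 ± 0.12, adjusted p = 0.00331), and Cox5b, which binds zinc, 47.1, 47.1 and 52.1 CPM and 65.6, 65.0 and 64.7 CPM (0.42 ± 0.06, adjusted p = 4.53e-06). Cox4i1, the largest nuclear subunit, had 134, 117 and 139 CPM and 169, 145 and 156 CPM (0.27 ± 0.07, adjusted p = 0.00174). The other subunits with tissue forms behaved alike: log2 fold changes were 0.34 for Cox6a1, 0.48 for Cox6b1, 0.41 for Cox7a2 and 0.37 for Cox7b. Cox7a2l, a related protein known for holding supercomplexes together, was not called (0.12 ± 0.06, adjusted p = 0.0859).

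Several subunits of complex IV come in a common form and a form restricted to heart, skeletal muscle, testis or lung, and the common form made up nearly all transcripts in each pair. In day 3 controls, the mean level per gene length was 98.6 FPKM for Cox4i1 against 0.360 FPKM for Cox4i2, 103 FPKM for Cox6a1 against 0.850 FPKM for Cox6a2, and 207 FPKM for Cox6b1 against 0.955 FPKM for Cox6b2. It was 83.4 FPKM for Cox7a2 against 0.996 FPKM for Cox7a1, and 131 FPKM for Cox8a against 0.215 FPKM for Cox8b. Cox8c had no read in any library, which allows a level of up to 0.146 to 0.186 CPM by library (3 counts, counting error only), and Cox7b2 had reads in 1 library only, at 0.0621 CPM.

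Among these rare forms, Cox6a2 (chr7:127804607-127805559), the heart and skeletal muscle form of subunit 6A, fell steeply from 3.70, 3.29 and 3.42 CPM at day 0 to 0.817, 0.464 and 0.497 CPM at day 3, a log2 fold change of -2.53 ± 0.27 (adjusted p = 3.10e-08), and had 0.415, 0.462 and 0.400 CPM in the mutant. The day 0 libraries lay far above all libraries of day 3. Summed skeletal muscle markers were 30.8 to 36.6 CPM at day 0 and 42.2 to 50.1 CPM at day 3, with 2 of 6 tested called higher and 0 lower. The part of muscle cells in the change of Cox6a2 was not tested. The gene overlaps Itgad on the opposite strand, which was too low to be tested. Cox6b2, the testis form, had 0.681, 0.278 and 0.348 CPM and 1.14, 0.927 and 1.18 CPM (1.26 ± 0.43, adjusted p = 0.0142), but the call was lost without day 0 replicate 2 or 3, with adjusted p up to 0.0670. Cox7a1 was not called (-0.60 ± 0.52, adjusted p = 0.323). Another such pair, counted here under complex I by name alone, is Ndufa4 (55.2 FPKM at day 3) and the hypoxia-inducible Ndufa4l2 (2.89 FPKM). Ndufa4 rose from 62.6, 61.0 and 64.3 CPM to 79.8, 78.4 and 75.9 CPM (0.32 ± 0.06, adjusted p = 8.97e-05). Ndufa4l2 rose from 1.46, 2.34 and 1.80 CPM to 3.76, 3.30 and 2.67 CPM (0.81 ± 0.22, adjusted p = 0.00241).

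In ATP synthase most genes of the catalytic head and the c ring were not called. Atp5a1 and Atp5b, the alpha and beta subunits and the most abundant nuclear transcripts of the complex (172 and 166 FPKM at day 3), were not called, whereas 3 of 3 genes of the central stalk, 3 of 4 of the peripheral stalk, 5 of 5 of the small membrane subunits and 1 of 3 of the c ring rose. Atp5b (chr10:127919142-127926260) had 736, 699 and 739 CPM at day 0 and 727, 707 and 725 CPM at day 3, nearly the same range (-0.01 ± 0.05, adjusted p = 0.877). Atp5a1 had 571, 565 and 579.5 CPM and 566, 554 and 541 CPM (-0.05 ± 0.05, adjusted p = 0.445). Under scaling by library size alone both were lower (adjusted p of 0.00617 for Atp5a1 and 0.0269 for Atp5b). Atp5e, the epsilon subunit of the central stalk, went from 36.6, 31.4 and 39.0 CPM to 58.2, 55.3 and 53.1 CPM (0.64 ± 0.08, adjusted p = 7.33e-07), and Atp5mpl, a small membrane subunit, from 44.2, 36.6 and 39.8 CPM to 60.4, 56.4 and 56.4 CPM (0.52 ± 0.07, adjusted p = 1.17e-06). The days stood apart for both. Atp5k, subunit e, whose promoter is printed above, had 8.17, 6.68 and 7.59 CPM and 12.9, 10.9 and 13.5 CPM (0.72 ± 0.13, adjusted p = 3.13e-05).

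The c subunit of the rotating ring is encoded by 3 genes that give the same mature protein. In day 3 controls Atp5g3 was the most abundant (70.1 FPKM), followed by Atp5g2 (34.7 FPKM) and Atp5g1 (10.4 FPKM). Atp5g3 had 127, 123 and 148 CPM at day 0 and 165, 155 and 149.7 CPM at day 3 (0.24 ± 0.07, adjusted p = 0.00405), a call lost under library size alone (adjusted p = 0.134). Atp5g1 had 56.2, 49.0 and 52.0 CPM and 55.5, 51.4 and 49.8 CPM (0.00), and Atp5g2 59.5, 54.4 and 60.0 CPM and 63.7, 54.5 and 60.4 CPM (0.04), with overlapping days and no call. Atpif1, the inhibitor of ATP hydrolysis by the complex and no member of the set, was not called either (0.17 ± 0.22, adjusted p = 0.501).

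**Figure D3:**
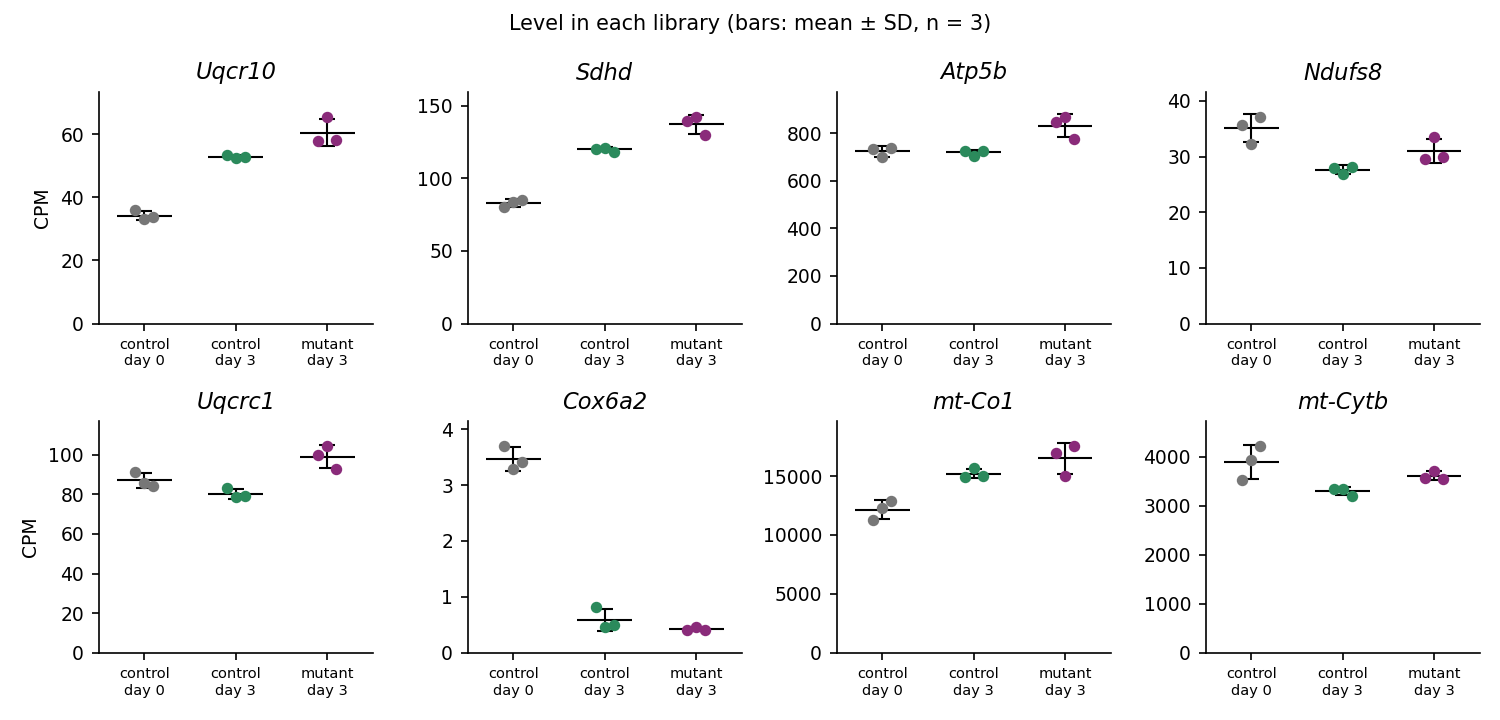
CPM (y axis, from 0) of 8 genes in each library of the 3 groups (x axis); points are libraries and bars mean ± SD (n = 3). Uqcr10 and Sdhd lie higher at day 3 than at day 0, Atp5b lies level, Ndufs8, Cox6a2 and mt-Cytb lie lower, and Uqcrc1 lies highest in the mutant (92.8 to 104 CPM) without a rise from day 0 to day 3.

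The mitochondrial mRNAs were far more abundant than the nuclear ones and were called in fewer cases. In day 3 controls their level per length ran from 6.65 FPKM for mt-Nd4l to 9610.2 FPKM for mt-Co1, with a median of 910.1 FPKM, against a median of 32.4 FPKM and a highest level of 207 FPKM for nuclear genes tested. The 3 subunits of complex IV rose. mt-Co1 (mitochondrial genome, 5328 to 6872), the catalytic subunit, had 11266, 12277 and 12905 CPM at day 0 and 14939.9, 15666 and 15016 CPM at day 3 (0.32 ± 0.06, adjusted p = 8.17e-05). mt-Co2 had 154, 170.0 and 166 CPM and 205, 189 and 190.0 CPM (0.26 ± 0.06, adjusted p = 9.15e-04). mt-Co3 had 95.6, 90.6 and 109.8 CPM and 139.6, 113 and 116 CPM (0.32 ± 0.09, adjusted p = 0.00270). Each of the 3 was higher in all day 3 libraries, but under library size alone mt-Co2 and mt-Co3 were not called (adjusted p of 0.0545 and 0.0546).

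mt-Cytb (mitochondrial genome, 14145 to 15288), cytochrome b of complex III, fell from 3537, 3942 and 4222 CPM to 3352, 3349 and 3204 CPM (-0.24 ± 0.06, adjusted p = 9.06e-04), and the days did not overlap. The 7 subunits of complex I were not called, and their days overlapped. mt-Nd1 had 2737, 3250.2 and 3282 CPM at day 0 and 3039.8, 3163 and 3000.2 CPM at day 3 (-0.01), and mt-Nd2 1437, 1712 and 1605 CPM and 1428, 1505 and 1399 CPM (-0.13, adjusted p = 0.0542). mt-Nd2 lay at the threshold: it was called lower with RLE factors, library size alone, DESeq2, no filter, only the 2 groups, the replicate number as a block, and without day 0 replicate 1, with adjusted p from 5.82e-04 to 0.309 over all alternatives. mt-Nd4 had 1333, 1565 and 1578 CPM and 1531, 1587 and 1502 CPM (0.05), and mt-Nd5 2354, 2872 and 2874 CPM and 2715, 2845 and 2852 CPM (0.05). mt-Nd6, the mRNA read from the other strand, had 293, 378 and 330.0 CPM and 379.6, 369.8 and 413 CPM (0.22, adjusted p = 0.103). Of these, replicate 1 was the lowest day 0 library for mt-Nd1, mt-Nd2, mt-Nd4, mt-Nd5 and mt-Nd6. mt-Nd3 (7.83, 7.35 and 6.78 CPM, then 6.92, 6.54 and 6.52 CPM) and mt-Nd4l (1.65, 1.28 and 1.56 CPM, then 1.52, 2.06 and 2.48 CPM), both with low counts, had log2 fold changes of -0.14 and 0.42. mt-Atp6 of ATP synthase had 49.3, 52.0 and 56.6 CPM and 56.4, 59.2 and 57.2 CPM (0.13, adjusted p = 0.164).

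Nuclear and mitochondrial transcripts were compared within each library, as a description with no test. Nuclear genes summed to 5420.0, 5296 and 5657 CPM at day 0, 6545, 6269.9 and 6230.3 CPM in day 3 controls against 7137, 7485 and 6707 CPM in the mutant. Mitochondrial mRNAs summed to 23265, 26318 and 27138 CPM, then 27795, 28854 and 27759 CPM, then 30930.1, 29717 and 31317 CPM. For either sum the 3 groups followed each other without overlap. As a share of all reads the mitochondrial mRNAs held 2.72 ± 0.214% at day 0 and 2.75 ± 0.0632% at day 3, which do not differ beyond their spread, and 2.95 ± 0.0907% in the mutant. The ratio of mitochondrial to nuclear CPM was 4.29 to 4.97 at day 0, 4.25 to 4.60 in day 3 controls and 3.97 to 4.67 in the mutant, so the groups overlapped and the mean log2 ratio was 2.23 ± 0.11 (SD, n = 3) at day 0 and 2.15 ± 0.06 in day 3 controls. That overlap depended on the measure. From summed FPKM the log2 ratio was 2.60 to 2.82 at day 0 and 2.47 to 2.59 in day 3 controls, and from the mean log2 CPM of the genes the difference was 3.23 to 3.40 and 3.07 to 3.16, so by both of these the days stood apart, with day 3 lower by 0.19 and 0.20 on the log2 scale. The makeup of the mitochondrial reads did shift: mt-Co1 held 46.6% to 48.4% of them at day 0, 53.7% to 54.3% in day 3 controls and 50.5% to 56.0% in the mutant.

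Subunits that rose were mostly short, and length was therefore set beside the change for nuclear genes with a coding length in GENCODE M21 (81 of 82). Of those of up to 450 coding bases 42 of 49 rose (85.7%, median log2 fold change 0.39), of those up to 900 bases 15 of 21 (71.4%, 0.30), and of longer ones 4 of 11 (36.4%, 0.05). Over all genes tested with a coding length the shares were 43.2%, 34.8% and 31.7%, and the medians 0.18, 0.05 and -0.02. The subunit genes thus had a larger share of risen genes than all genes in the first 2 length classes, and a similar one among the longest. The part of transcript length in the result was not tested.

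**Figure D4:**
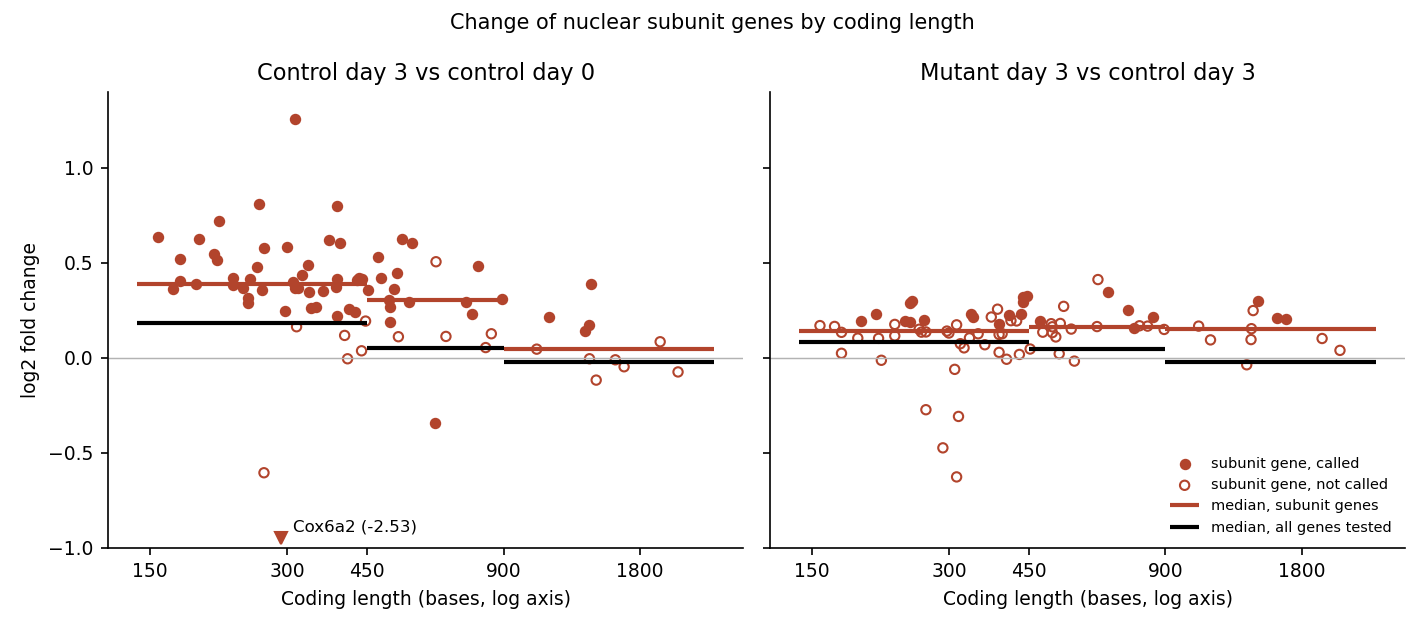
Log2 fold change (y axis) of nuclear subunit genes against coding length in bases (x axis, log scale) in the 2 comparisons; filled points were called, and horizontal lines are medians in 3 length classes for subunit genes and for all genes tested. On induction the subunit median falls from 0.39 to 0.05 with length while that of all genes falls from 0.18 to -0.02; between mutant and control it stays at 0.14 to 0.16 in the 3 classes.

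Some levels are uncertain because genes overlap. The spans of 28 nuclear and 7 mitochondrial members overlap another gene's, among them mt-Nd4 with mt-Nd4l, mt-Atp6 with mt-Atp8 and mt-Co3, mt-Nd5 with mt-Nd6, Ndufb2 with Braf and the pair of Atp5o identifiers, and the strand setting of the counting is not given. Of the overlapping nuclear genes 22 of 27 tested rose on induction, and of the others 40 of 55. How reads that match several places were counted is not given either. Low counts of mitochondrial mRNAs without such an overlap, such as mt-Co2 and mt-Nd3, may therefore not reflect their levels. The part of the counting rule in these levels, and in the share held by mt-Co1, was not tested.

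Mutant cells at day 3 were compared with control cells at day 3 to see how the same genes stood where Plagl1 was targeted. Subunit genes were slightly higher in the mutant: 24 of 94 were called higher and 0 lower, while 7.95% of all genes tested were higher and 9.74% lower (edgeR). At an unadjusted p below 0.05 there were 50 higher and 0 lower. DESeq2 called 25 higher and 0 lower, against 7.53% and 7.99% of all genes. The differences were small, with a median log2 fold change of 0.15 (0.00 over all genes tested), and 0 members passed 1.5-fold in either direction, against 1.24% of genes higher and 3.67% lower. The groups did not overlap for 43 of the 94 members. Over all 13013 genes tested they did not overlap for 2132 that were higher in the mutant and 2217 that were lower. By complex the higher calls numbered 6 of 38 in complex I, 2 of 4 in complex II, 3 of 8 in complex III, 6 of 15 in complex IV and 6 of 17 in ATP synthase, with medians between 0.15 and 0.17, and 1 of 12 among mitochondrial mRNAs (median 0.13). Summed macrophage markers were 17960.0 to 19844 CPM in the controls and 19014 to 20850 CPM in the mutant, with 6 of 11 called higher. Progenitor markers were lower in sum (17477 to 18063 CPM against 13745 to 14881 CPM, with 5 of 10 called lower and 2 higher). Osteoclast markers were higher in sum (97.2 to 105 CPM against 123 to 125 CPM), with 1 of 3 tested called higher and 0 lower (median log2 fold change -0.07). The part of these, and of the muscle, endothelial and Y-linked genes given above, in the result was not tested.

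How many genes were called depended on single libraries. Without control replicate 1, 2 or 3 there were 25, 10 and 8 higher calls, against 6.58%, 4.13% and 5.06% of all genes. The 8 calls without control replicate 3 lie within a few genes of that share. Without mutant replicate 1, 2 or 3 there were 12, 16 and 44, against 5.15%, 6.24% and 10.2%. In each of these fits 94 members were tested and 0 were lower, against 7.13% to 12.2% of all genes. Scaling by library size alone left 14, against 6.36% of all genes. The median of the set ranged from 0.11 to 0.19 over the fits without 1 library. Mutant replicate 3 was the lowest of its group in the summed nuclear level (6707 CPM) and replicate 2 the highest (7485 CPM), all above the highest control (6545 CPM). The genes called higher in every fit and setting run, other than the 1.5-fold limit that none passed, were 7: Ndufs7, Uqcrc1, Uqcrq, Cox8a, Atp5a1, Atp5b and Atp5g2.

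Among these 7 were the catalytic head of ATP synthase and core proteins of complexes I and III. Uqcrc1 (chr9:108765701-108778691), a core protein of complex III, had 83.1, 78.4 and 79.3 CPM in day 3 controls against 99.7, 104 and 92.8 CPM in the mutant (0.30 ± 0.06, adjusted p = 8.93e-04), after 91.2, 85.5 and 84.4 CPM at day 0. Atp5b had 850.1, 869.9 and 778 CPM in the mutant, each above every control library of either day (0.21 ± 0.05 against day 3, adjusted p = 0.00651). Atp5a1 had 645, 676 and 595 CPM (0.21 ± 0.05, adjusted p = 0.00765). Both subunits of the catalytic head thus lay higher in all 3 mutant libraries than in all day 3 controls. Ndufs7, a core subunit of complex I with the last iron-sulfur cluster of the chain, had 20.5, 19.1 and 20.2 CPM in controls and 25.0, 26.8 and 24.3 CPM in the mutant (0.35 ± 0.08, adjusted p = 0.00560), and Atp5g2 63.7, 54.5 and 60.4 CPM and 75.4, 75.1 and 68.2 CPM (0.29 ± 0.07, adjusted p = 0.00406). Their groups did not overlap. Uqcrq (61.3, 54.8 and 62.1 CPM, then 70.6, 73.5 and 73.5 CPM, 0.29 ± 0.06, adjusted p = 0.00241) and Cox8a (100.2, 102 and 91.6 CPM in the mutant, 0.23 ± 0.06, adjusted p = 0.00873) are small subunits that had also risen on induction.

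Calls of other named genes rested on single libraries. Ndufa12, an accessory subunit of complex I, had 42.7, 38.8 and 46.1 CPM in controls and 55.3, 58.6 and 45.9 CPM in the mutant, ranges that overlap (0.33 ± 0.09, adjusted p = 0.00993, up to 0.0848 without 1 library). Cox7a2 had 84.8, 82.6 and 74.5 CPM and 101, 102 and 95.1 CPM, with no overlap (0.30 ± 0.07, adjusted p = 0.00710, and 0.0563 without control replicate 3). In complex II, Sdhb had 90.1, 93.6 and 87.5 CPM in the mutant (0.21 ± 0.06, adjusted p = 0.0219, up to 0.104) and Sdhd 139, 142 and 130.1 CPM (0.20 ± 0.05, adjusted p = 0.0139, up to 0.0629). The mutant libraries of both lay above all controls of day 3. Atp5g1 (0.23 ± 0.07), Cox5a (0.32 ± 0.11), Cox5b (0.18 ± 0.06), Cox6a1 (0.23 ± 0.08), Cox7b (0.20 ± 0.07), Ndufa4 (0.19 ± 0.06) and Uqcr10 (0.19 ± 0.06) had adjusted p between 0.0317 and 0.0471, and each lost its call without at least 4 of the libraries, 1 at a time.

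Among mitochondrial mRNAs mt-Nd1 alone was called, with 3039.8, 3163 and 3000.2 CPM in day 3 controls against 3522, 3668 and 3424 CPM in the mutant (0.21 ± 0.06, adjusted p = 0.0213). The groups did not overlap, but the call was lost without control replicate 1, control replicate 3 or mutant replicate 1 (adjusted p up to 0.0908). The other log2 fold changes were between -0.25 (mt-Nd4l) and 0.23 (mt-Atp6, adjusted p = 0.0575). mt-Co1 had 16972, 15022 and 17552 CPM in the mutant, with replicate 2 inside the control range (0.12 ± 0.06, adjusted p = 0.192). The rare forms of complex IV subunits stayed rare: Cox6a2 (-0.47 ± 0.40), Cox6b2 (-0.63 ± 0.40) and Cox7a1 (-0.27 ± 0.60) were not called. By coding length, 15 of 49, 5 of 21 and 3 of 11 nuclear genes were higher in the mutant from the shortest to the longest class (30.6%, 23.8% and 27.3%), while over all genes it was 14.2%, 9.57% and 7.01%.

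Because both comparisons use the day 3 controls, their values were set side by side without a test. Of the 65 genes that rose on induction 15 were also higher in the mutant, and 9 of the 26 that were not called on induction were. The 3 that fell on induction (Ndufs8, Cox6a2 and mt-Cytb) were not called in the mutant comparison, with log2 fold changes of 0.16, -0.47 and 0.13. Day 0 controls differ from the mutant in genotype, medium and time in culture. Against them 81 of 94 genes were higher and 2 lower in the mutant (Cox6a2 -3.01 ± 0.29 and Ndufs8 -0.18 ± 0.08), beside 33.7% and 34.7% of all genes tested. Ndufs8 kept that call without day 0 replicate 2 or mutant replicate 2 and lost it without any other library of these groups.

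Other genes of the pathway were called in both directions on induction. Their counts stand beside the shares of all genes tested, which were 33.1% higher and 32.4% lower on induction and 7.95% and 9.74% in the mutant comparison; in lists this short, a share within a few genes of these is no result about the list. On induction 6 of 15 tested regulators of mitochondrial biogenesis were higher (40.0%) and 7 lower (46.7%). Ppargc1b, a coactivator of respiratory genes, had 1.22, 1.67 and 1.10 CPM at day 0 and 4.74, 4.02 and 4.04 CPM at day 3 (1.68 ± 0.21, adjusted p = 2.80e-07), and its paralog Ppargc1a 0.146, 0.167 and 0.290 CPM and 1.09, 1.29 and 1.06 CPM (2.50 ± 0.43, adjusted p = 2.98e-05). Both were low, but higher in all day 3 libraries. Ppargc1a had 3 counts each in day 0 replicates 1 and 2, the floor given below, so its fold change rests on few reads. The DNA-binding factors whose motifs were searched moved in both directions: Esrra (0.42 ± 0.08) and Yy1 (0.19 ± 0.06) rose while Nrf1 (-0.35 ± 0.09) and Gabpa (-0.54 ± 0.07) fell, and so did Tfam, which packages and transcribes mitochondrial DNA (-0.32 ± 0.08). The call of Yy1 was lost under library size alone (adjusted p = 0.303). Esrra, Nrf1, Yy1 and Tfam were named for their role and after their values were seen. Myc fell from 85.2, 85.6 and 85.7 CPM to 45.3, 42.7 and 46.5 CPM (-0.93 ± 0.06). In the mutant comparison 0 of these 15 were called in either direction (edgeR, with 1 higher and 1 lower at an unadjusted p below 0.05, and 0 by DESeq2).

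Assembly factors build the complexes but are not part of them. Against 33.1% higher and 32.4% lower over all genes, on induction 4 of 15 rose (26.7%) and 1 fell for complex I (Tmem126b 0.68 ± 0.07, Ndufaf2 -0.64 ± 0.12), 4 of 13 rose (30.8%) and 2 fell for complexes II, III and V, and 9 of 19 rose (47.4%) and 3 fell for complex IV (the copper chaperone Cox17 1.16 ± 0.20). In the mutant 0 of 15, 0 of 13 and 1 of 19 were higher and 0 lower (edgeR; at an unadjusted p below 0.05, 2, 4 and 2 were higher and 0 lower; DESeq2 called 0, 0 and 1). Other subunits and electron carriers, such as cytochromes c and c1 and enzymes of ubiquinone synthesis, rose in 8 of 16 and fell in 3. In the mutant 2 of them were higher, cytochrome c1 (Cyc1), with 52.3, 51.9 and 52.2 CPM in controls and 65.9, 69.9 and 60.7 CPM in the mutant (0.33 ± 0.06, adjusted p = 8.52e-04), and cytochrome c (Cycs), with 127, 115 and 125 CPM and 143, 151 and 145 CPM (0.26 ± 0.06, adjusted p = 0.00457). Their groups did not overlap.

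Genes that maintain and read mitochondrial DNA rose in 5 of 26 (19.2%) and fell in 10 (38.5%) on induction, beside 33.1% and 32.4% of all genes, the protease Lonp1 (-0.74 ± 0.06) and the DNA polymerase Polg (-0.48 ± 0.07) among those that fell, and 1 of 26 (Mterf2, -0.89 ± 0.22) was lower in the mutant. Import genes rose in 3 of 18 (16.7%) and fell in 8 (44.4%), with the chaperones Hspa9 (-1.01 ± 0.05) and Hspd1 (-0.82 ± 0.05) lower, and 2 were higher in the mutant. Genes of mitochondrial shape and mitophagy rose in 8 of 20 (40.0%) and fell in 1 (Bnip3 1.04 ± 0.10, Pink1 0.60 ± 0.07), with 1 higher in the mutant. Genes of the tricarboxylic acid cycle, which supplies NADH and succinate, rose in 5 of 18 (27.8%) and fell in 4 (22.2%). In the mutant 5 of them (27.8%, beside 7.95% of all genes) were higher and 0 lower, such as Idh2, with 103, 105 and 106 CPM in controls and 129.6, 134 and 126 CPM in the mutant (0.31 ± 0.05, adjusted p = 1.53e-04).

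Of 7 carriers of adenine nucleotides, phosphate and protons 1 rose and 1 fell on induction (Ucp2 0.55 ± 0.06, Vdac3 -0.22 ± 0.05), and 3 were higher in the mutant (42.9%, beside 7.95% of all genes), the ADP/ATP carrier Slc25a5 (0.22 ± 0.05, adjusted p = 0.00307) among them. Mitochondrial antioxidant enzymes rose in 4 of 8 and fell in 2, beside 33.1% and 32.4% of all genes, led by the superoxide dismutase Sod2, which went from 53.5, 50.7 and 56.8 CPM to 416, 415 and 435 CPM (2.98 ± 0.06), and 3 were higher in the mutant. Hypoxia response genes rose in 6 of 14 (42.9%) and fell in 5 (35.7%), shares near those of all genes, with Epas1 (4.18 ± 0.07) and Vegfa (-1.61 ± 0.06) at the ends. In the mutant 5 of these 14 (35.7%, beside 9.74% of all genes) were lower and 0 higher, Vegfa again (-0.58 ± 0.07, adjusted p = 2.35e-06) and Pdk1, which holds back pyruvate oxidation (-0.38 ± 0.07, adjusted p = 4.87e-04).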

How the data were processed

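RNA was sequenced in 9 libraries of mouse mandibular periosteal progenitors, in 3 groups of 3 taken from the sample titles, genotypes and treatments in the labels. TRIzol extraction and the NEBNext Ultra II RNA kit were used, per the labels' protocols. Per the submitters' processing notes, cutadapt, HISAT2 and HTSeq were used with genome build GRCm39. The sources used here do not give their roles, versions, annotation release, strand setting or rule for reads that match several places. Raw whole-number counts and FPKM, both made by the authors, stand side by side in the deposited table. For genes with at least 100 reads the deposited FPKM equalled the count divided by gene length and library total within 0.1% in all cases, so it carried no further normalization and was used only to compare levels between genes. Per-sample columns left unused numbered 0.

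Counts were filtered with filterByExpr (minimum count 10, by group), which kept 13013 genes, given TMM factors (0.960 to 1.07) and analysed with edgeR 4.0.16 under R 4.3.3, using its quasi-likelihood test on 1 mean per group over all 9 libraries, without a replicate block. A gene was called at an adjusted p (Benjamini-Hochberg, over all genes tested) below 0.05. Standard errors were obtained by dividing the log2 fold change by the square root of F. The coefficient of variation between replicates was 0.0558 over the 3 groups and 0.0714 within the mutant group, the highest of the 3, so the shared spread may understate that of the mutant. Replicate pairs differed by more than sampling noise, and none was counted as 1 sample. At these depths 3 counts correspond to 0.146 to 0.186 CPM; floors cover counting error only. The fit was also run on data simulated with the same spread in all groups. That run cannot show how the fit copes with the wider spread of the mutant group.

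The members, the pathway and marker lists and the tests were chosen with earlier results of these data known, so counts over lists are descriptions with no test of their own; the Y-linked genes were added after the data were seen. Genes were named by rule: mitochondrial mRNAs tested, paralogous subunits, the ATP synthase inhibitor, and top genes of each complex. The latter were the 2 genes of each nuclear complex with the smallest p in each of the first 2 comparisons. Values by library are given for many of these, not always for all groups, and for others only a fold change or mean level. Up to 4 genes with the smallest p are named per list. Genes of single promoters printed and those said to be chosen later stand outside this rule. Coding lengths came from GENCODE M21, matched by gene identifier, and promoters from RefSeq (GRCm38.p6), matched by symbol; no coordinate was moved between builds. Alternatives were DESeq2 1.42.0, RLE factors, library size alone, no filter, no mitochondrial reads, only the 2 groups of a contrast, a replicate block, a 1.5-fold limit and leaving out each library. The result of 1 gene of the set is not reported here by name.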

Additional observations from a re-analysis of the deposited data

How the results depend on the processing

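Over all alternatives, 1002 values of named genes kept their direction and side of the threshold, 40 gained a call, 68 lost one and 35 changed sign; none of those 35 was called before or after. The limits are 3 libraries per group, small effects in the mutant comparison, and a scaling that cannot be checked against a spike-in.

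Scaling by library size alone gave 8 lower members on induction, 14 higher in the mutant against day 3 controls and 4 lower against day 0. The shares of all genes were 41.5%, 6.36% and 44%. It moved summed levels at day 0 to 1359, 519, 503, 901 and 2520.5 CPM for nuclear complexes I to V, those of complex II to 547 CPM (day 3) and 597 CPM (mutant), of complex III at day 3 to 554 CPM, and of mitochondrial mRNAs to 27481 CPM (day 3) and 29526 CPM (mutant). A limit of 1.5-fold left 12 higher and 1 lower on induction, beside 17.9% and 14.2% of all genes tested. It left 0 higher in the mutant against day 3 (1.24% of all genes). Against day 0 it left 25 higher and 1 lower, beside 18.3% and 17% of all genes. DESeq2, the fit of only the 2 groups and the replicate block each left 1 lower against day 0, beside 27.8%, 33.4% and 34.1% of all genes. Leaving out 1 library gave 8 to 44 higher in the mutant against day 3, beside 4.13% to 10.2% of all genes. Against day 0 it gave 1 to 3 lower, beside 32.3% to 33.9%. The log2 difference of the mitochondrial to nuclear ratio on induction was -0.19 with FPKM and -0.20 with the mean of log2 CPM, and -0.23 with the latter for the mutant against day 0. The cause of these shifts was not tested. There were no mitochondrial rRNA or tRNA rows to leave out.

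Among named genes the sign changed under library size alone for Atp5g2 (-0.0851), Cox7a2l (-0.00401), Ndufs7 (-0.00916), mt-Nd4 (-0.0764) and mt-Nd5 (-0.0675) on induction, and for mt-Nd3 (-0.0133) and mt-Nd5 (-0.0160) in the mutant against day 3 controls, where Cox7a2l also changed with RLE (0.00130) and DESeq2 (0.00346). Without 1 library the log2 fold change on induction ran from -0.0358 to 0.00736 for Atp5b, -0.0517 to 0.0493 for Atp5g1, -0.0141 to 0.104 for Atp5g2, -0.0912 to 0.0340 for mt-Nd1, -0.0301 to 0.0865 for mt-Nd4 and -0.0359 to 0.101 for mt-Nd5. In the mutant it ran from -0.00164 to 0.0625 for Atp5mpl, -1.02 to 0.315 for Cox7a1, -0.0584 to 0.0530 for Cox7a2l, -0.0706 to 0.120 for Ndufb1, -0.0503 to 0.0563 for mt-Nd3, -0.0179 to 0.0389 for mt-Nd5 and -0.0833 to 0.285 for mt-Nd6.

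Replicate numbers share nothing in the labels, and same-numbered libraries did not deviate together, with correlations from -0.03 to 0.03 on induction, -0.11 to 0.06 between mutant and control at day 3, and -0.10 to -0.01 between mutant and day 0. A library correlated best with its own number in 2, 1 and 0 of 3 cases. A fit with the replicate number as a block called 65 members higher and 4 lower on induction, beside 32.6% and 31.8% of all genes. It called 17 higher and 0 lower in the mutant against day 3, beside 6.79% and 8.97%. Against day 0 it called 81 higher and 1 lower, beside 33% and 34.1%.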
